A study of Homo sapiens with 2 samples.

Results

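Retroviral envelope genes and the cell receptors that retroviral envelopes bind were followed in OAW42-R cells, a human ovarian carcinoma line resistant to cisplatin, and in OAW42 cells, its cisplatin-sensitive counterpart. OAW42-R was derived from OAW42 by repeated exposure to increasing cisplatin with recovery in between. Both lines were grown in the same medium with fetal calf serum and insulin, without cisplatin, and total RNA of each went onto 1 whole-transcript array. With 1 sample per line and no replicates, values carry no measured error, the lines could not be compared by a test, and the state of a culture cannot be told apart from the line. In RNA of a whole culture, more expressing cells and more RNA per cell cannot be told apart either. The set held 10 of the 22348 genes named on the arrays. These were 7 envelope-derived genes of endogenous retroviruses and 3 receptors. They were chosen by gene symbol with their values in these arrays already known, so the levels and differences of the members are a description. Each member was measured by 1 transcript cluster, the unit in which the array summarises its probes. No cluster with several gene symbols held a member.

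Endogenous retroviruses are remnants of infections of the germ line, and most of their genes have decayed. A few envelope genes stayed intact and are used by the host, above all in the placenta. Syncytin-1 (ERVW-1) and syncytin-2 (ERVFRD-1) are envelope proteins that fuse trophoblast cells into the syncytiotrophoblast by binding a transporter on the neighbouring cell. SLC1A5, a glutamine transporter, and the related SLC1A4 are receptors of syncytin-1, and MFSD2A, which carries lysophospholipids, is the receptor of syncytin-2. ERVH48-1 encodes suppressyn, a truncated envelope protein without a membrane anchor that binds SLC1A5 and blocks fusion by syncytin-1. ERVV-1 and ERVV-2 are neighbouring envelope genes expressed in placenta, ERVMER34-1 encodes the envelope protein HEMO, and ERVK13-1 is a HERV-K locus annotated as a long non-coding RNA.

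Promoter sequences of members were taken from RefSeq (build GRCh38.p14), which here covered 7 of the 10 genes. ERVH48-1, ERVV-2 and ERVFRD-1 were not among them. Each sequence spans 250 bases before to 50 after a gene start and is written 5′ to 3′ on the gene's strand. The promoters of ERVV-1 and ERVW-1 are shown because these envelope genes had low signals in both lines, and those of ERVMER34-1 and MFSD2A because these genes differed between the lines. Capitals mark matches, on either strand, to any of 5 short motifs. These were the TATA box (TATAAA), the GC box (GGGCGG), the CCAAT box (CCAAT), the core of the cyclic AMP response element (TGACG) and the motif of the trophoblast factor GCM1 (ATGCGGG). Adjacent or overlapping matches run together.
ERVV-1 (chr19:53013671-53013970, plus strand): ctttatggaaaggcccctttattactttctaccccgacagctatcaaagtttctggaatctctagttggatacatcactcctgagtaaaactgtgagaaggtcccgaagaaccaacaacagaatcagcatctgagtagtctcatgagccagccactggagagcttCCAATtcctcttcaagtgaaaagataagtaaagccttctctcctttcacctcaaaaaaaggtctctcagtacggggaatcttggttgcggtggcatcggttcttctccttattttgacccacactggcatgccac
ERVW-1 (chr7:92471375-92471674, minus strand): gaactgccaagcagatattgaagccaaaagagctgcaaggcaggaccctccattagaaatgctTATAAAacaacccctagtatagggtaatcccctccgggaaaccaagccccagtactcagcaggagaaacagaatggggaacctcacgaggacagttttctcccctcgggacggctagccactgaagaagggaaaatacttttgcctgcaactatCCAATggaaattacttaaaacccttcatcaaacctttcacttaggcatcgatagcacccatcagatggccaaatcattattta
ERVMER34-1 (chr4:52751376-52751675, minus strand): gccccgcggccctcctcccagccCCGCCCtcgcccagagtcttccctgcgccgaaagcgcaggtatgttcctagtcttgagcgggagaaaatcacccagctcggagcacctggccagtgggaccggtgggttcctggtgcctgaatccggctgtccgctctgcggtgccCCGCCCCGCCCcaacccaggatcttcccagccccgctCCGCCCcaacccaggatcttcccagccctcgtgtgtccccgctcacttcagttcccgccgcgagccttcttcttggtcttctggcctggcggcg
MFSD2A (chr1:39954895-39955194, plus strand): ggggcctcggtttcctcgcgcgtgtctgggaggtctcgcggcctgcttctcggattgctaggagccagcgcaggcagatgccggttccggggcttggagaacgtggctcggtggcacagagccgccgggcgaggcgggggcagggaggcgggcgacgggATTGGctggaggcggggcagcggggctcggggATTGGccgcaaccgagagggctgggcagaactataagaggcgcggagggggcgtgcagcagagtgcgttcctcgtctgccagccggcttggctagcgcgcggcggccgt

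The ERVV-1 and ERVW-1 promoters had 45.3% and 46.0% G and C, below the median of 58.7% over 35116 promoters of the same length, while ERVMER34-1 had 68.7% and MFSD2A 72.0%. ERVW-1 held a TATA box match at -187 and a CCAAT match at -33, in bases from the gene start to the match. ERVV-1 held a single CCAAT match at -85. ERVMER34-1 held 4 GC box matches, of which a pair overlapped by 1 base, and MFSD2A held a pair of CCAAT matches on the opposite strand. Of all promoters of this length, 11.5% held TATAAA, 45.0% GGGCGG, 34.6% CCAAT, 24.6% TGACG and 1.86% ATGCGGG. No match to TGACG or ATGCGGG was found in these 4 windows, nor in the promoters of the other members covered. A match describes letters and is not a site known to be bound.

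The main difference among the members was a higher signal of ERVH48-1 and ERVV-2 in OAW42-R, while ERVW-1 and ERVFRD-1, the syncytin genes, were low and near equal in both lines. The syncytin-2 receptor MFSD2A was higher in OAW42-R by less than 2-fold, and ERVMER34-1 was lower by less than 2-fold. The syncytin-1 receptors SLC1A5 and SLC1A4 and the HERV-K locus ERVK13-1 lay close to equality. Signals are on the log2 scale, and differences are OAW42-R minus OAW42, where 1 is a 2-fold difference. A gene was counted as above the floor where its brighter array reached that array's median over all 67524 clusters, 6.34 in OAW42-R and 6.30 in OAW42. All 3 receptors and 4 of the 7 envelope-derived genes were above the floor. Of these 7 members, 2 were at least 2-fold higher in OAW42-R, against 0.540% of the 15920 named genes above the floor. None was at least 2-fold lower, against 0.333% of those genes. Since the members were chosen with this comparison known, nothing is read from these shares.

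**Figure D1:**
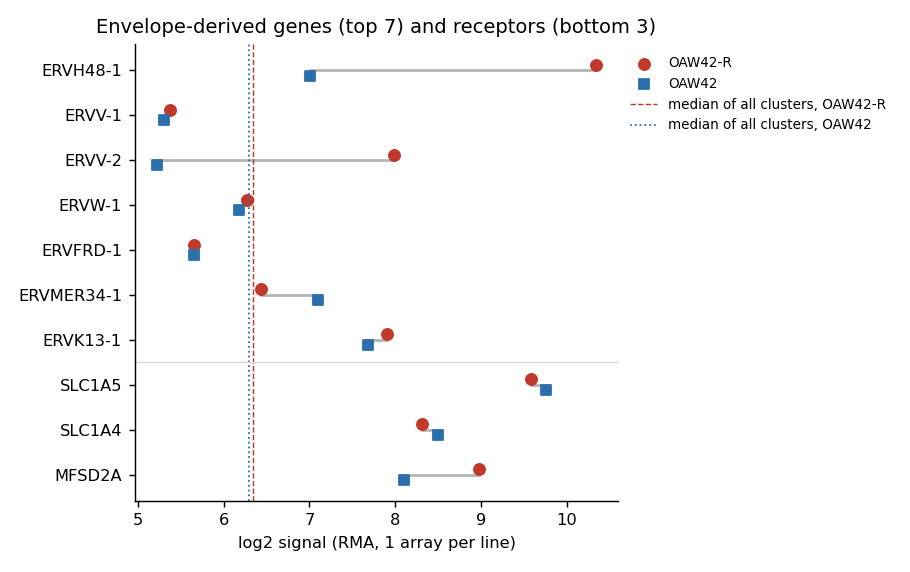
Log2 signal (x axis) of each member on the OAW42-R array (red circles) and the OAW42 array (blue squares), 1 array per line, with the median of all clusters of each array as a vertical line. ERVH48-1 and ERVV-2 show the widest gaps (10.34 in OAW42-R, against 7.01 in OAW42, and 7.98 in OAW42-R, against 5.22 in OAW42), and ERVV-1, ERVW-1 and ERVFRD-1 lie left of both medians.

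Among the envelope-derived genes, ERVH48-1 (cluster TC21000498.hg.1, chromosome 21) had a signal of 10.34 in OAW42-R, against 7.01 in OAW42. The OAW42-R signal stood at percentile 96.8 of all clusters of its array, and the OAW42 signal at percentile 62.8. The difference of 3.33, or 10.1-fold, was the second largest positive difference among named genes above the floor. ERVH48-1 was thus the member with the largest difference, and its signal was above the array's median in both lines. MYMK, a gene of muscle cell fusion, had 7.82 in OAW42 and is taken here as not expressed, which was not tested. On that reading the ERVH48-1 signal in OAW42 does not show that ERVH48-1 is expressed there.

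ERVV-2 (TC19000805.hg.1, chromosome 19) had a signal of 7.98 in OAW42-R, against 5.22 in OAW42, which makes a difference of 2.76, number 7 among positive ones. The OAW42 signal stood at percentile 30.2 of its array, so the 6.77-fold ratio is set against a level near background. The OAW42-R signal stood at percentile 77.7, close to that of MYMK in OAW42-R (7.83), so it does not by itself show expression. ERVV-1 (TC19000804.hg.1), its closely related copy, had 5.38 in OAW42-R, against 5.30 in OAW42. The pair follow each other in RefSeq gene order with 0 genes between them, and their clusters carry consecutive numbers. In OAW42-R the ERVV-2 cluster stood above the median of the array and the ERVV-1 cluster below it, while in OAW42 both were below. How far probes of one copy also bind transcripts of the other was not tested.

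The syncytin genes were below the floor. ERVW-1 (TC07001600.hg.1, chromosome 7) had 6.27 in OAW42-R, against 6.18 in OAW42, just under the array medians. ERVFRD-1 (TC06001272.hg.1, chromosome 6) had 5.66 in both lines. The arrays therefore show no level of either syncytin that stands out from background, and ratios at such levels carry no order.

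ERVMER34-1 (TC04001196.hg.1, chromosome 4) ran the other way, with 6.44 in OAW42-R, against 7.10 in OAW42. Its difference of -0.66 was the largest negative difference among the members, 1.58-fold, and 421 named genes (2.64%) differed by at least as much in either direction. The OAW42-R signal lay just above the median of that array, and the signals of both lines were lower than those of MYMK. ERVK13-1 (TC16000788.hg.1, chromosome 16) had 7.90 in OAW42-R, against 7.68 in OAW42, close to MYMK (7.83 in OAW42-R, against 7.82 in OAW42). Its difference of 0.22 lay within the central 95% of all named genes above the floor, which ran from -0.44 to 0.53.

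The receptors were well above the array median in both lines. MFSD2A (TC01000503.hg.1, chromosome 1) had 8.97 in OAW42-R, against 8.10 in OAW42, a difference of 0.87 or 1.83-fold. That difference was number 131 among positive ones, and 217 named genes (1.36%) differed by at least as much in either direction. SLC1A5 (TC19001656.hg.1, chromosome 19) had 9.58 in OAW42-R, against 9.76 in OAW42. SLC1A4 (TC02000374.hg.1, chromosome 2) had 8.31 in OAW42-R, against 8.50 in OAW42. Their differences of -0.18 and -0.19 are of a size reached by 30.5% and 28.6% of named genes. The signal of SLC1A5, the receptor of suppressyn, was thus near equal in lines whose ERVH48-1 signals were 10.1-fold apart. At 1.5-fold, MFSD2A joined the higher members (3 in all, where 2.02% of named genes were higher) and ERVMER34-1 was the only lower one (1.31% of named genes were lower).

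**Figure D2:**
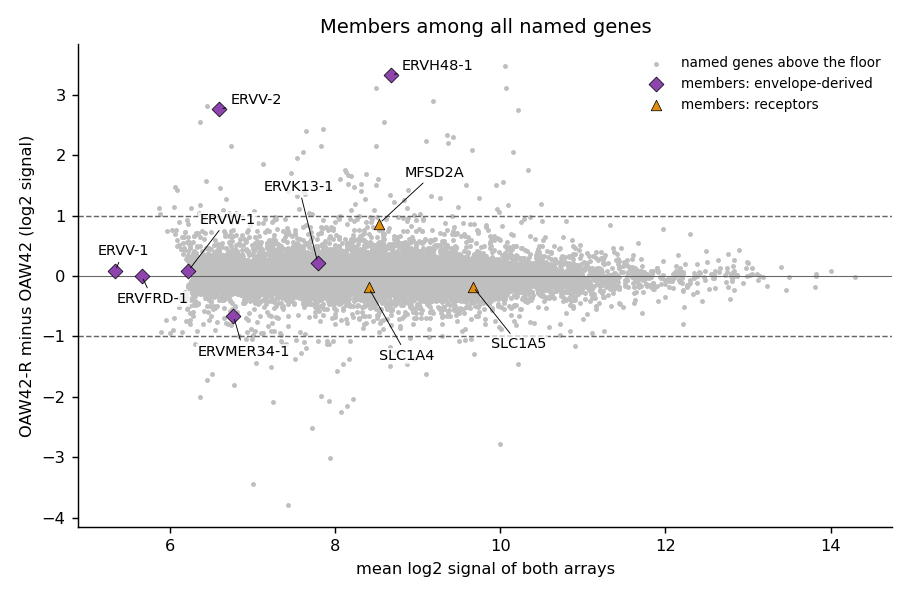
Difference between the lines (OAW42-R minus OAW42, log2 signal) against the mean log2 signal of both arrays, for each named gene above the floor (grey), the envelope-derived members (purple diamonds, also those below the floor) and the receptors (orange triangles). Dashed lines mark 2-fold, which ERVH48-1 (3.33) and ERVV-2 (2.76) pass, while MFSD2A (0.87) and ERVMER34-1 (-0.66) lie between them.

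Genes next to the members differed by less than ERVH48-1 and ERVV-2 did. The 3 named genes above the floor on each side of every member made 54 distinct genes besides the members. Of these, 24 were higher in OAW42-R, 29 were lower and 1 was equal, with a median of -0.03 and a range from -0.52 to 0.59. None passed 2-fold. Around ERVH48-1 the differences ran from -0.18 for CBS, an enzyme of homocysteine metabolism, to 0.19 for the phosphodiesterase PDE9A. Its nearest neighbours NDUFV3, a subunit of respiratory complex I, and the homeobox gene PKNOX1 differed by 0.14 and 0.00. Around ERVV-2 all 6 neighbours were zinc finger loci. ZNF702P, a pseudogene, differed by 0.59 (8.52 in OAW42-R, against 7.93 in OAW42), and the other 5 lay between -0.15 and 0.13. Beside ERVMER34-1, which was lower, the long non-coding RNA DANCR differed by 0.55 and RASL11B, a RAS-like gene, by 0.24. Of the 6 neighbours of ERVMER34-1, 3 were higher and 3 lower, the lowest at -0.07. MFSD2A had 4 higher neighbours, all by less than itself, with TRIT1, a tRNA-modifying enzyme, at 0.42 and the zinc finger gene RLF at 0.35. Its other 2 neighbours were lower, MYCL, directly before it, at -0.08 and OXCT2 at -0.05. Next to ERVW-1 the cell cycle kinase CDK6 had the largest difference (-0.52) and passed the floor through its OAW42 signal alone. Next to SLC1A4 the largest difference was that of AFTPH (-0.46). CDK6, AFTPH, ZNF702P and DANCR lay outside the central 95% of named genes above the floor, which ran from -0.44 to 0.53. The clusters without a gene symbol that may lie between these genes were not placed.

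**Figure D3:**
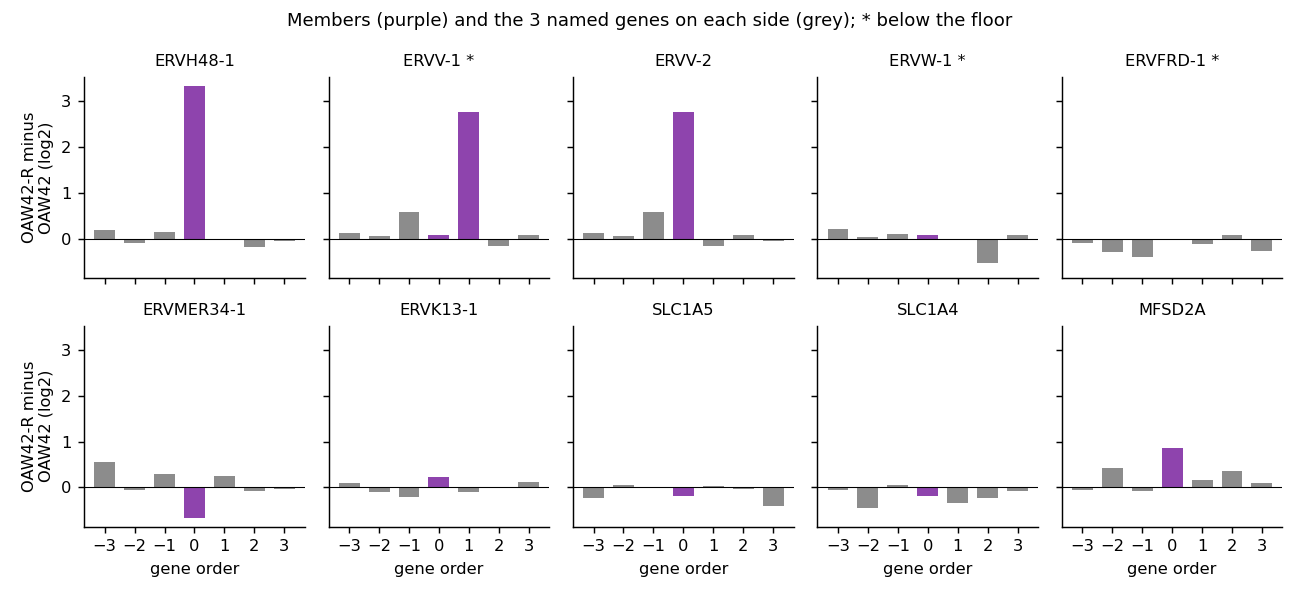
Difference between the lines (OAW42-R minus OAW42, log2 signal) of each member (position 0, purple) and of the 3 named genes above the floor on each side in RefSeq gene order (grey; a member among them is purple). The bars of ERVH48-1 (3.33) and ERVV-2 (2.76) are the highest. The neighbours that are not members lie between -0.52 and 0.59, and ERVFRD-1 and PKNOX1 have a difference of 0.00.

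With 2 arrays, likeness to a member means only nearby signals on both. Nearest to ERVH48-1 was RELN, which encodes the secreted glycoprotein reelin, with 10.05 in OAW42-R, against 6.94 in OAW42, a distance of 0.30 on the log2 scale. The aquaporin pseudogenes AQP7P1 and AQP7P3, the palmitoyltransferase gene ZDHHC2 and LOC100996643 followed at 0.56 to 0.99. Nearest to ERVV-2 was NOSTRIN, which binds endothelial nitric oxide synthase, with 7.86 in OAW42-R, against 5.04 in OAW42, a distance of 0.22. LINC00534, the adhesion receptor gene ADGRF1, DSCAM-AS1 and LRRC19 followed at 0.36 to 0.92.

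Other loci of endogenous retroviruses were sparsely covered. Of 27 listed, 22 had no cluster under their symbol alone and were not analysed here, and 3 were above the floor. Clusters with several gene symbols were not searched for these loci. ESRG, a long non-coding RNA transcribed from a HERV-H element, differed by 0.65 (6.54 in OAW42-R, against 5.89 in OAW42). LINC-ROR, a long non-coding RNA of pluripotent cells, differed by 0.36 and the HERV-K locus ERVK3-1 by 0.02. ESRG passed the floor through its OAW42-R signal alone. None of the 3 passed 2-fold. Their median of 0.36, beside 0.00 for all named genes above the floor, rests on these 3 values. A floor raised to the 75th percentile gave 0.02, and no floor gave 0.09. Among genes derived from the gag genes of retroelements, 14 of the 17 above the floor were lower in OAW42-R and 3 higher, with a median of -0.05. Over all named genes above the floor 49.7% were lower. The paraneoplastic antigen gene PNMA1 differed by -0.80 (9.41 in OAW42-R, against 10.21 in OAW42), the imprinted placental gene PEG10 by -0.44, PNMA8A by -0.27 and MOAP1, which binds BAX, by -0.19.

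Receptors of other retroviruses did not pass 2-fold either. Of 13 above the floor, 9 were lower and 4 higher, with a median of -0.10, where 49.7% of all named genes above the floor were lower. FLVCR2, a transporter related to the receptor of a feline leukaemia virus, had 6.57 in OAW42-R, against 7.48 in OAW42, a difference of -0.91. LY6E, the receptor of syncytin-A in mouse, differed by -0.53. The phosphate transporters SLC20A1 and SLC20A2, receptors of gibbon ape and amphotropic murine leukaemia viruses, each differed by 0.32.

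Transporters related to SLC1A5 and SLC1A4 or working beside them had a median of -0.09, with 9 of 12 lower. Of all named genes above the floor, 49.7% were lower. SLC1A1, the glutamate transporter of the same family, was the exception in size, with 9.07 in OAW42-R, against 6.64 in OAW42, a difference of 2.43. SLC43A1, which carries neutral amino acids, had 8.08 in OAW42-R, against 9.25 in OAW42, a difference of -1.17. The cystine transporter SLC7A11 (-0.31) and the leucine transporter SLC7A5 (0.29) lay within 1.5-fold. Of 12 genes of glutamine and serine metabolism and growth control, 7 were lower and 5 higher, with a median of -0.08 and none past 2-fold. GLUL, glutamine synthetase, differed by -0.57, the phosphoserine phosphatase PSPH by -0.35, GLUD1, glutamate dehydrogenase, by -0.28 and RPTOR, a part of the mTORC1 complex, by 0.27.

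**Figure D4:**
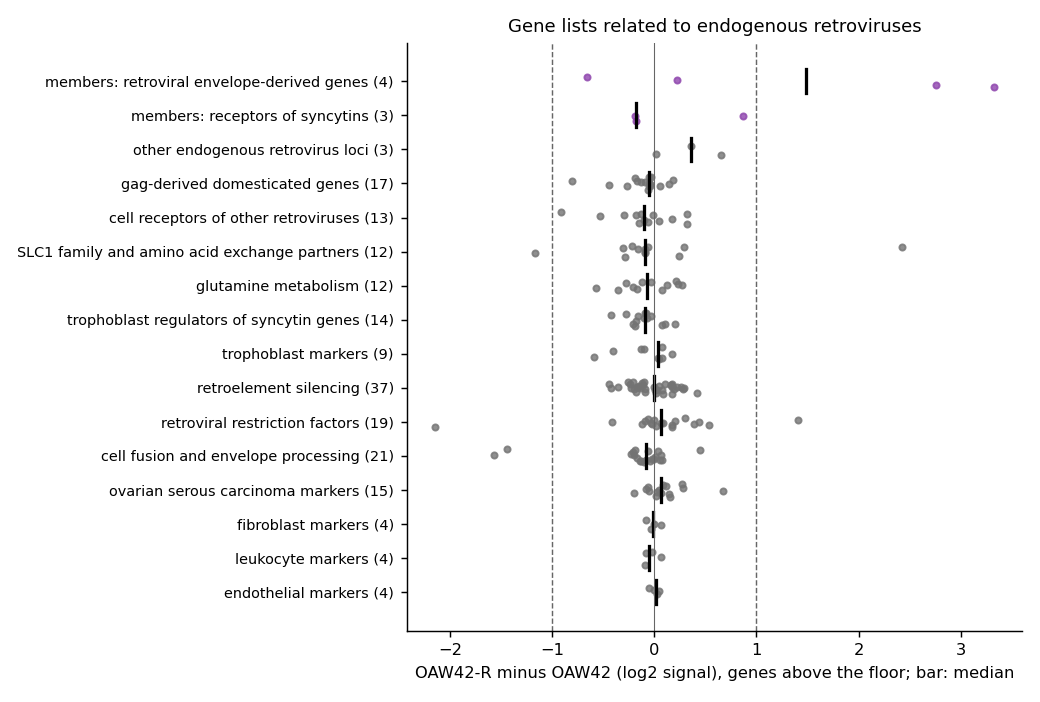
Difference between the lines (OAW42-R minus OAW42, log2 signal) of the genes above the floor in each list, 1 point per gene, with the number of genes in brackets, the list median as a black bar and 2-fold as dashed lines. Outside the members (purple), the points past 2-fold are SLC1A1 (2.43), BST2 (1.41), SLFN11 (-2.15), GJA1 (-1.57), ANXA1 (-1.44) and SLC43A1 (-1.17).

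Of the genes listed as trophoblast regulators of syncytin genes, 14 were above the floor, with a median of -0.10 and none past 2-fold. In OAW42-R 11 were lower and 3 higher, where 49.7% of all named genes above the floor were lower. TFAP2A differed by -0.42 (8.60 in OAW42-R, against 9.02 in OAW42), GATA2 by -0.28, GATA3 by -0.21 and SP1 by 0.20. GCM1, the trophoblast factor that activates both syncytin genes, was below the floor, with 5.81 in OAW42-R, against 5.79 in OAW42. Of 24 trophoblast markers with a cluster, 15 were below the floor on both arrays, and the 9 above it had a median of 0.04. The hormone subunit gene CGA had 5.37 in OAW42-R, against 5.34 in OAW42, the pregnancy glycoprotein gene PSG1 had 4.62 in OAW42-R, against 4.91 in OAW42, and CYP19A1, aromatase, had 4.50 in OAW42-R, against 4.57 in OAW42. Other markers stood above the floor in both lines. HSD17B1 had 8.42 in OAW42-R, against 8.25 in OAW42, and PGF had 8.27 in OAW42-R, against 8.19 in OAW42. CGB7 had 7.70 in OAW42-R, against 7.66 in OAW42. The linear signals of the 24 summed to 2657 in OAW42-R, against 2855 in OAW42. Without SDC1, the brightest of them and a gene that epithelial cells also express, the other 23 summed to 2000.3 in OAW42-R, against 1988 in OAW42. Of the 9 above the floor, PSG9 (-0.59), SDC1 (-0.40), HSD17B1 (0.17) and CSH2 (-0.13) had the largest differences, and the pregnancy glycoprotein genes are close copies. PSG9 and CSH2 passed the floor through their OAW42 signals alone, and none of the 9 passed 2-fold.

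Genes that silence retroelements had a median of 0.00, with 18 of 37 higher, 18 lower and none past 2-fold. TRIM28, the corepressor that zinc finger proteins recruit to endogenous retroviruses, had 11.08 in OAW42-R, against 11.43 in OAW42, a difference of -0.35. SETDB1, the histone methyltransferase that acts with it, differed by 0.16. The zinc finger gene ZNF486 differed by -0.44, MORC2, which acts with the HUSH silencing complex, by -0.42, and TET1, which oxidises methylated cytosine, by 0.42.

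Restriction factors against retroviruses went both ways, with 11 of 19 higher, 7 lower and a median of 0.07. Of all named genes above the floor, 46.6% were higher and 49.7% lower. BST2, or tetherin, which holds budding virions at the cell surface, had 8.14 in OAW42-R, against 6.73 in OAW42, a difference of 1.41. SLFN11, which limits viral protein synthesis, had 7.07 in OAW42-R, against 9.22 in OAW42, a difference of -2.15. The cytidine deaminases APOBEC3G and APOBEC3D differed by 0.54 and 0.44. They are related neighbouring genes whose probes may cross-react, which was not tested.

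Genes of envelope processing and cell fusion had a median of -0.08, with 14 of 21 lower and 6 higher. Of these 21, 2 were at least 2-fold lower and none at least 2-fold higher. Over all named genes above the floor 49.7% were lower, 0.333% at least 2-fold lower and 0.540% at least 2-fold higher. FURIN, the protease that cleaves many envelope proteins, had 9.29 in OAW42-R, against 9.21 in OAW42. The convertase PCSK5 differed by 0.45 and the scramblase ANO6 by -0.23. The gap junction gene GJA1 had 7.24 in OAW42-R, against 8.81 in OAW42, a difference of -1.57. The annexin ANXA1 had 6.32 in OAW42-R, against 7.76 in OAW42, a difference of -1.44. ANXA1 passed the floor through its OAW42 signal alone. MYMK, a fusion protein of muscle cells taken here as not expressed, had 7.83 in OAW42-R, against 7.82 in OAW42. On that reading, a signal above the floor alone does not show that a gene is expressed.

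The labelled tissue was checked with markers. Of 16 markers of ovarian serous carcinoma 15 were above the floor, with PAX8, a Müllerian transcription factor, at 11.67 in OAW42-R, against 11.40 in OAW42. The epithelial adhesion gene EPCAM had 10.70 in OAW42-R, against 10.03 in OAW42. The folate receptor gene FOLR1 had 9.57 in OAW42-R, against 9.29 in OAW42, and SOX17 had 9.34 in OAW42-R, against 9.54 in OAW42. WT1, MUC16, WFDC2 and CLDN4 were above the floor but lower than MYMK in both lines, with 6.75 to 7.36 in OAW42-R, against 6.74 to 7.22 in OAW42, and CDH6 was below the floor, at 4.68 in both lines. The median difference of the 15 was 0.07. Markers of fibroblasts, leukocytes and endothelial cells had medians of -0.02, -0.05 and 0.02, with 14 of the 26 with a cluster below the floor, and those above it differed by at most 0.09 in size. The brightest of each kind stood at or above MYMK in both lines. COL1A1 had 7.83 in OAW42-R, against 7.91 in OAW42, CD68 had 10.47 in OAW42-R, against 10.56 in OAW42, and CLDN5 had 8.06 in both.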

How the data were processed

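Total RNA of both lines was labelled with biotin and hybridised to Affymetrix human transcriptome arrays. The authors normalised the arrays with RMA over their whole set of samples and used the TAC software. Deposited were log2 values to 2 decimals, 1 for each transcript cluster. The annotation release, genome build and RMA version are not given in the sources used here. RMA aligns the distributions of the arrays, which hides a shift in total RNA per cell, and compresses large ratios near background. With 1 array per line, the number of arrays limits the precision.

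Of 67524 clusters, 23780 had 1 gene symbol, 1541 several and 42203 none. Symbols were updated with RefSeq (GRCh38.p14), which also gave the gene order, chromosome, gene type and promoter sequences. The Entrez identifier matched 21497, the symbol 1974 and an older symbol 305, and 4 kept the platform's. Genes of the Y chromosome and XIST were left out. A gene was represented by its brightest cluster (mean of the arrays). Genes and lists were counted at 2-fold, with no test. The members and lists were chosen with earlier results of these data known. Named were all members, up to 4 genes per list with the largest differences, 3 neighbours a side and 5 genes nearest to ERVH48-1 and ERVV-2. GCM1, CGA, PSG1, CYP19A1, CGB7, PGF, SETDB1, FURIN, MYMK, WT1, MUC16, WFDC2, CLDN4 and CDH6 were added, and the sum without SDC1 was computed, after their values were seen. Alternatives were median centring, quantile normalisation, loess, other floors, thresholds and representative clusters. The steps were tested on simulated data. Software was Python 3.11.15 with pandas 2.3.3, numpy 2.4.6, statsmodels 0.14.6 and matplotlib 3.10.9.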

Additional observations from a re-analysis of the deposited data

How the results depend on the processing

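Leaving out a replicate was not possible with a single array for each line. No paired analysis was possible because there was no test to block. The 10 member differences moved by at most 0.039 under the settings that rescale the arrays, and since each member has 1 cluster, the choice of cluster did not touch them. ERVFRD-1, equal as deposited, had -0.03 at the lowest. The count of members at least 2-fold higher stayed within 1.5 times, and that of lower members became 1 (ERVMER34-1) at the 1.5-fold threshold. The floor, which sets the genes that enter a list, moved medians by over 1.5 times and more than 0.05. At the 75th percentile they were 2.76 for envelope-derived members (1.49 as first computed), 0.02 for other endogenous retrovirus loci, -0.16 for SLC1 relatives and -0.08 for fibroblast markers. With no floor they were 0.09 for envelope-derived members, 0.09 for other endogenous retrovirus loci, -0.05 for trophoblast markers and 0.06 for fibroblast markers. Quantile normalisation gave 0.018 for restriction factors. Levels near background, as of ERVV-2 in OAW42, limit the ratios.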
